A study of Drosophila melanogaster with 2 samples.

Results

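Of the 10808 H3K27ac peaks on the autosomal arms that were found in both replicates, 1270 (11.8%) had their summit at a place where the ends of neighbouring genes meet. A peak was taken when its replicate 1 summit lay within 500 bp of an end of at least 2 different protein-coding genes of the dm6 genome whose spans did not contain one another, and when it overlapped a replicate 2 peak by at least 1 bp. These are called joining peaks here. A summit placed anywhere on 4.83% of the autosomal bases would have met the same distances, which is the background for the 11.8%. Of the other shared peaks, 2116 had a summit within 500 bp of an end of 1 gene, 50 lay near the ends of genes of which one contained the other, and 7372 had no gene end within 500 bp. The joining peaks were spread over 2L (252), 2R (336), 3L (291), 3R (388) and 4 (3).

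The chromatin came from wings of male Drosophila melanogaster pupae of the transgenic line D2, at 67% of pupal development, in 1 group of 2 biological replicates. Each replicate pooled 35 to 45 wings, which were lightly crosslinked for 1 min and processed by CUT&RUN, a method that cuts marked chromatin out of nuclei with an antibody-bound nuclease. The series places this stage at a time when the activity of the wing spot element is repressed. The line carries a transgene, neither the untransformed strain nor another stage is in the group, and a pool of whole wings averages over all cells of the wing. With 1 group, the comparisons run between kinds of peaks and between the replicates, and no test between conditions was possible. Of the marker genes of other tissues, 1 of 5 muscle genes (Mlc2), 0 of 5 neuronal genes, 1 of 2 glial genes (moody), 1 of 2 tracheal genes (trh), 0 of 4 hemocyte genes and 1 of 3 fat body genes (Lsp2) held a shared summit in or near the gene, while 10 of 10 wing genes did, among them vg, nub and ap. At an end of the gene, 6 of 10 wing genes had a shared summit, and vg, sd, bs and m had none. The counts of the other tissues stayed the same at ends. Wing genes can hold many summits, with 9 at nub. The share of all genes with a shared summit, the background for these counts, is not given here.

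H3K27ac is an acetylation of histone H3 that is deposited by the acetyltransferase CBP, called Nejire in flies, and is found at active promoters and enhancers. At an active promoter the start site itself is usually depleted of nucleosomes, and the acetylated nucleosomes lie beside it, foremost on the transcribed side. The fly genome is compact, so that neighbouring genes often start back to back or follow each other closely, and 1 stretch of acetylated chromatin can lie at the ends of more than 1 gene. Strand was missing from the gene table, so an end can be a transcription start or a 3′ end, and promoters were not told apart from 3′ ends.

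The lists differ in depth. Replicate 1 held 14461 peaks over a genome-wide background of 13.8 fragments, and replicate 2 held 26420 peaks over 27.1 fragments, both backgrounds recovered from the deposited peak values. Fold enrichment below is the authors' value per peak, the pileup of fragments at the summit over the local background, each raised by 1. Its 95% interval is the exact Poisson interval of the recovered pileup and covers counting error only, since these fragments carry no molecular identifiers and need not be independent. Folds are set against each other within a list, or with these intervals beside them.

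Shared summits were denser where gene ends meet than at single gene ends or away from them. There were 239 shared summits per Mb of sequence within reach of the ends of neighbouring genes, against 187 per Mb at ends of 1 gene and 79.1 per Mb away from gene ends. Among all replicate 1 peaks the densities were 278, 217 and 97.7 per Mb, and among all replicate 2 peaks 431, 389 and 194 per Mb. The order of these 3 classes was the same in each list, and the ratio of joined ends to single ends was 1.28 among shared peaks, 1.29 in replicate 1 and 1.11 in replicate 2. It also held on each autosomal arm among shared peaks, with 207 against 167 per Mb on 2L, 256 against 206 on 2R, 242 against 194 on 3L, 247 against 182 on 3R and 204 against 184 on 4, where only 3 joining peaks stood behind the value. On X, counted by the same distances but not included among the members, the densities were 64.5 per Mb at joined ends (59 of 615 shared X peaks), 41.3 per Mb at single ends and 22.8 per Mb away from ends. The order of joined and single ends turned with the size of the window: within 250 bp of a gene end the ratio among shared peaks was 0.732, and within 1000 bp it was 1.61. Near the ends of nested genes only, 50 shared peaks on 0.217 Mb gave 231 per Mb. All replicate 1 peaks gave 259 per Mb there, and all replicate 2 peaks 508 per Mb, above the 431 at joined ends. A high density was therefore not particular to the ends of neighbouring genes.

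**Figure D1:**
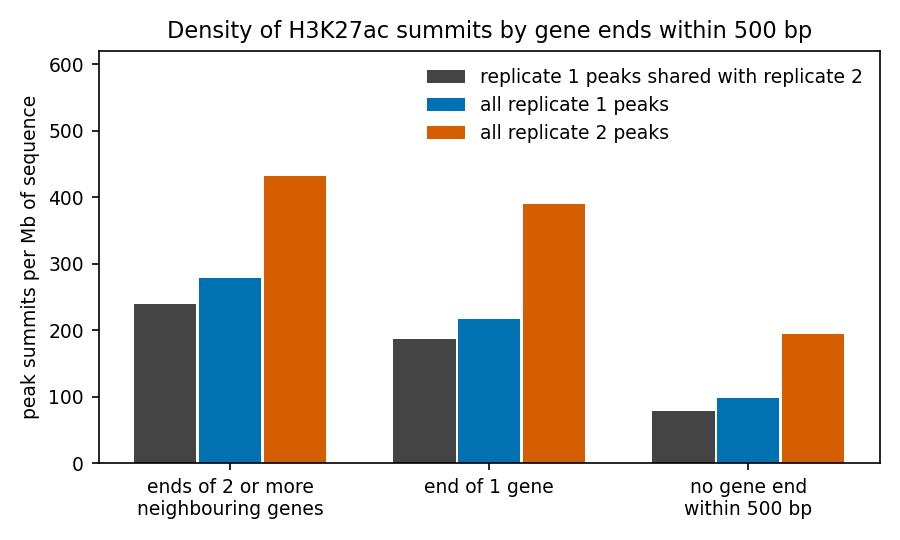
Peak summits per Mb of autosomal sequence (y axis) for sequence within 500 bp of the ends of 2 or more neighbouring genes, of the end of 1 gene, and of no gene end (x axis), in shared peaks and in the full list of each replicate. Bars fall from joined ends to single ends to the rest in all 3 lists, with 239, 187 and 79.1 shared summits per Mb. There are no error bars because each bar is 1 count over 1 length. Sequence near the ends of nested genes only is not drawn.

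Most summits lay not on the gene ends but beside them, inside the genes. The median distance of a joining summit to the nearer gene's end was 155 bp, and to the farther gene's end 348 bp. In 1081 joining peaks (85.1%) the replicate 1 summit lay inside 1 of the joined genes, in 27 inside both of a pair that overlap, in 161 (12.7%) in the gap between the genes and in 1 (CG13314 with Galk, a galactokinase) outside both without being between them. Of the joining peaks, 87.2% had their summit inside a gene whose end was within reach, against 66.1% of the peaks at 1 gene end. The rule itself favours such places, because most sequence within reach of both ends lies in genes. For non-overlapping pairs with a gap below 500 bp it came to 2.93 Mb in genes and 1.07 Mb in gaps. An expected share was computed for neither class, so the part of the rule in this contrast was not tested. The ends within reach faced each other across the gap or overlap in 1227 joining peaks (96.6%). The called interval of the replicate 1 peak reached over both ends in only 161 cases (12.7%), so most of the called intervals lay beside the junction or over 1 end of it.

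Counted per base over all close gene pairs, the gap itself held fewer shared summits than the gene sequence on either side. Close pairs are 2 ends of different, non-nested protein-coding genes at most 1000 bp apart, 8416 in all. For non-overlapping pairs with a gap below 500 bp the density within 500 bp of both ends was 346 shared summits per Mb in the genes and 135 per Mb in the gap, a ratio of 2.56. The ratio was 2.36 in replicate 1 alone and 1.37 in replicate 2 alone. In gaps of 250 bp to below 500 bp both replicates had the lower density in the gap, with 163 per Mb in the gap against 495 per Mb in the genes in replicate 1, and 276 against 570 per Mb in replicate 2. Gaps of 100 bp to below 250 bp gave 177 against 425 per Mb in replicate 1 and 436 against 541 per Mb in replicate 2.

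The narrowest gaps went opposite ways in the 2 replicates. For gaps below 100 bp, replicate 1 had 11 summits in the gap, 166 per Mb, against 315 per Mb in the genes. Replicate 2 had 79 summits in the gap, 1190 per Mb, against 473 per Mb in the genes. Of the 318 joining peaks with such a gap, 8 had their summit in the gap in replicate 1 and 47 in replicate 2, and 41 of them moved from a gene into the gap. The 72 different replicate 2 peaks behind the gap summits had a median fold of 2.38 and a median width of 423.5 bp, and 68.1% overlapped a replicate 1 peak. Replicate 2 peaks with the summit in the genes beside such gaps numbered 540, with a median fold of 2.07 and a median width of 286 bp, and 51.1% overlapped a replicate 1 peak. Replicate 2 was the deeper library, and the part of depth in this difference was not tested.

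**Figure D2:**
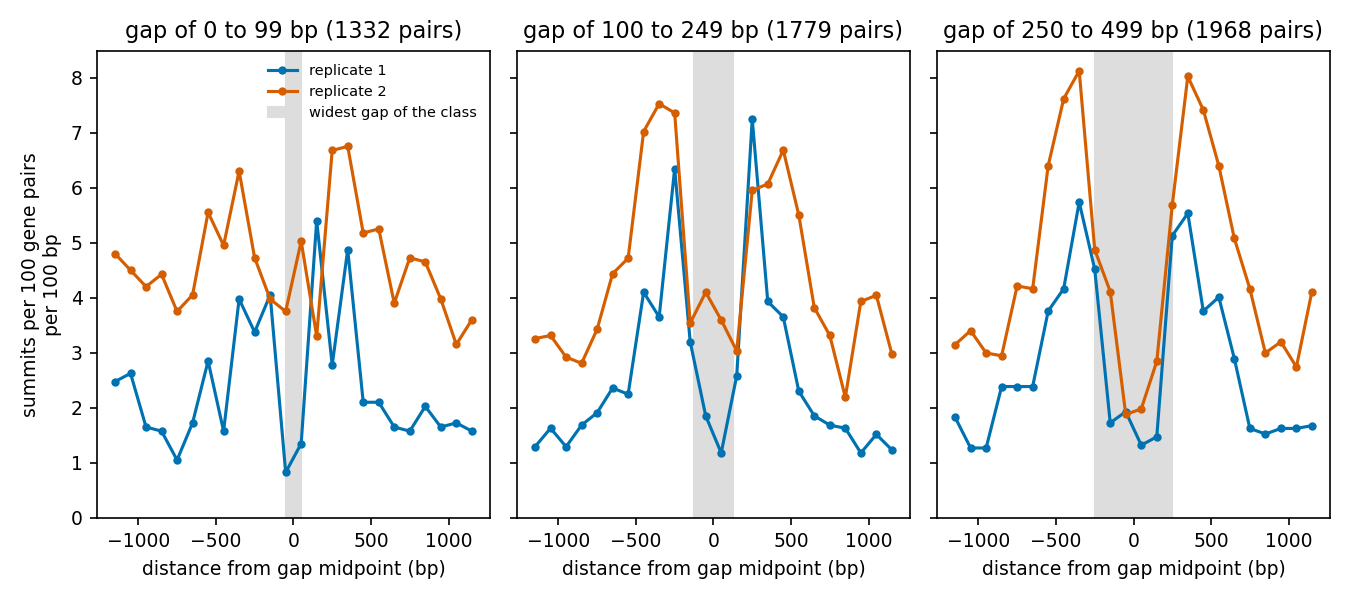
Summits per 100 close gene pairs in bins of 100 bp (y axis) against the distance from the midpoint of the gap (x axis), for gaps below 100 bp (1332 pairs), of 100 bp to below 250 bp (1779 pairs) and of 250 bp to below 500 bp (1968 pairs), with 1 line per replicate and the widest gap of each class shaded. In the widest class both replicates dip in the middle and peak on either side; in the narrowest, replicate 1 falls to 0.826 and 1.35 in the 2 central bins, where replicate 2 has 3.75 and 5.03, below its highest bins of 6.76 and 6.68.

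The wider the gap beyond about 250 bp, the less often a pair was joined, as the rule requires both ends within reach of 1 summit. A shared peak joined 1326 of the 8416 close pairs, 15.8%; the share was 17.9% with the replicate 1 list alone and 27.9% with the replicate 2 list alone. By gap, 13.0% of overlapping pairs were joined, 23.2% of those with a gap below 100 bp, 25.7% from there to below 250 bp, 15.2% to below 500 bp and 3.58% to below 1000 bp. The pairs of the joining peaks had a median gap of 146 bp. In 176 joining peaks the genes overlapped, and in 32 the gap was 500 bp or more.

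Some junctions held 2 joining peaks. In 107 of the 1326 joined gene pairs 2 separate joining peaks were called. In 105 of these 107 pairs (98.1%) the summits lay on either side of the midpoint between the ends. That share was largely set by the rule. Both summits had to lie within 500 bp of both ends, which left little room for 2 peaks on 1 side. The median spacing of the 2 summits was 516 bp, from 248 to 804 bp, and in 14 pairs both peaks overlapped 1 and the same replicate 2 peak. Pairs can share their peaks where more than 2 genes meet. One example was the 277 bp between MED7, a subunit of the Mediator complex that links regulators to RNA polymerase II, and Cap-H2, a condensin II subunit. The MED7 junction had peaks at 3R 10760659 to 10760954 and 3R 10761347 to 10761679, with summits 504 bp apart. The first had a fold of 3.51 (interval 2.63 to 4.59) in replicate 1 and 3.05 (2.48 to 3.73) in replicate 2, and the second 2.77 (1.99 to 3.74) and 2.58 (2.05 to 3.20). The counting intervals of both peaks overlapped in each replicate, so the sides were not told apart by height.

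Other such junctions were those of dgt6, a subunit of the augmin complex of the spindle, with Vha100-1, a subunit of the vacuolar proton pump (summits 612 bp apart), and of Tdg, a thymine DNA glycosylase, with Pur-alpha on chromosome 4 (559 bp apart). The Tdg junction had folds of 2.51 and 2.84 in replicate 1 and of 3.08 and 2.53 in replicate 2. The side with the larger value differed between the replicates. Counting intervals are not given for these peaks, so the sides were not told apart by height. Beside Dronc, an initiator caspase, and CG6685 the 2 replicate 1 peaks, 585 bp apart, had folds of 2.61 and 2.26, and both fell into 1 replicate 2 peak with a fold of 2.47. The same merging was seen between Cisd2 and Brd8, where the replicate 1 folds were 2.14 and 2.15 and the replicate 2 fold was 2.17.

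Most joining peaks, 1164 (91.7%), lay at the ends of 2 genes, while 99 lay at 3, 6 at 4 and 1 at 5. The 5 genes met on 2R at 21670129 to 21670558 and were CG42379, CG42380, CG42381, PIG-M, a mannosyltransferase of GPI anchor synthesis, and NC2alpha, a subunit of a repressor of basal transcription. That peak had a fold of 2.74 (2.10 to 3.52) in replicate 1 and 2.09 (1.68 to 2.57) in replicate 2, and the replicate 2 summit, 124 bp away, joined none of these pairs. Ada2a, an adaptor of a histone acetyltransferase complex, and Polr2D, an RNA polymerase II subunit, lay on 1 side of a gap of 42 bp. Tgs1, which makes the trimethylated RNA cap, and moi, a telomere-capping protein, lay on the other side. The Ada2a junction on 3R held 2 joining peaks, at 18254913 to 18255392 with folds of 2.30 and 2.00 and at 18255576 to 18256131 with folds of 3.07 and 2.40 in replicates 1 and 2. The replicate 2 summit of the first peak, 187 bp away, joined none of the same pairs. CG45099, CG6015, pit, an RNA helicase, and Fadd, a death-domain adaptor of the immune deficiency pathway, also shared a pair of peaks, with folds of 2.88 and 2.74 in replicate 1 and 2.00 and 2.36 in replicate 2.

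In height, the joining peaks lay close to peaks at single gene ends. The median fold in replicate 1 was 2.66 for joining peaks (quartiles 2.33 to 3.07, range 1.68 to 6.05), against 2.63 at 1 gene end and 2.44 away from ends. In replicate 2 it was 2.30 for joining peaks (quartiles 2.04 to 2.61, range 1.57 to 4.27), against 2.35 at 1 gene end and 2.28 away from ends. The difference to single ends was 0.03 in replicate 1 and -0.06 in replicate 2, so it had no common direction. With equal numbers of top peaks in both lists it was -0.02 and -0.08, the same direction in both. The difference to peaks away from ends was 0.22 in replicate 1 and 0.02 in replicate 2. It turned in replicate 1 when the pileup was set against the genome-wide background in place of the local one, with medians of 3.58 for joining peaks, 3.65 at 1 gene end and 3.85 away from ends. In replicate 2 those medians were 3.17, 3.10 and 3.10. The median local background beside these values was 18.7, 18.2 and 21.3 fragments in replicate 1 and 37.9, 35.7 and 36.5 fragments in replicate 2.

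The joining peaks were a little wider. Their median width was 336 bp in replicate 1, against 329 bp at 1 gene end and 302 bp away from ends, and 392.5 bp in replicate 2, against 378 bp and 335 bp. The difference to single ends, 7 bp in replicate 1 and 14.5 bp in replicate 2, turned to -12.5 and -1 bp among peaks whose -log10 q reached 5. Among the top 10% of fold in both lists were 102 joining peaks (8.03%), 214 peaks at 1 gene end (10.1%) and 474 away from ends (6.43%), with 7.34% of all shared peaks as the background.

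Single joining peaks differed in fold between the replicates about as often as peaks at single gene ends. The counting intervals of the 2 folds overlapped in 1192 joining peaks (93.9%), against 94.8% at 1 gene end and 98.5% away from ends, with a background of 97.2% over all shared peaks. The replicate 1 interval lay wholly above the replicate 2 interval in 77 joining peaks (6.06%), against 5.01% and 1.23%, and 1 joining peak (0.0787%) went the other way. That one lay at the ends of sgll and CG31473, with 2.57 (1.90 to 3.40) in replicate 1 and 4.19 (3.50 to 4.98) in replicate 2, where it fell into a peak of 1341 bp whose summit was 1141 bp away and which also matched another joining peak of sgll. In all, 56 joining peaks (4.41%) shared their replicate 2 peak with another shared peak, and among the other 1214 the intervals overlapped in 1139 (93.8%). The fold was higher in replicate 1 in 1017 joining peaks (80.1%), against 71.0% at 1 gene end and 66.5% away from ends. Set against the genome-wide background of each library, the pileup was higher in replicate 1 in 74.4%, against 74.7% and 81.9%, so the joining peaks no longer led in this respect. Across the joining peaks, which share their 2 libraries, the Spearman correlation of the folds was 0.49 (n = 1270), given as a description.

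**Figure D3:**
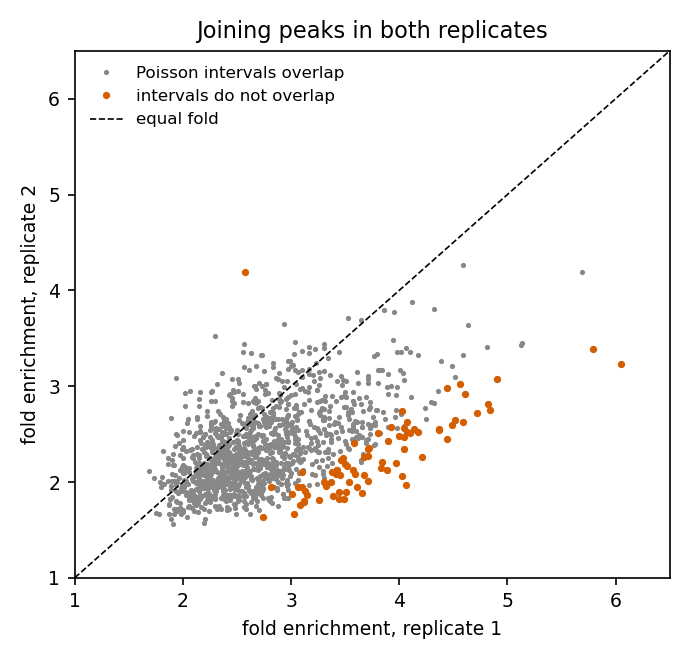
Fold enrichment in replicate 2 (y axis) against replicate 1 (x axis) for each of the 1270 joining peaks, with the line of equal fold. Peaks whose 95% Poisson intervals do not overlap are coloured: 77 lie below the line and 1 above it.

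The summit of the overlapping replicate 2 peak joined at least 1 of the same gene pairs in 996 joining peaks (78.4%), and any pair in 1011 (79.6%). The median distance between the summits of both replicates was 80 bp for joining peaks, against 66 bp at 1 gene end and 60 bp away from ends. Of the joining peaks, 56.3% had their summits within 100 bp of each other, against 62.8% and 65.2%. Joining peaks were found in the other list at a share close to that of single ends: 85.8% of replicate 1 peaks at joined ends overlapped a replicate 2 peak, against 86.5% at 1 gene end and 80.9% away from ends. In the deeper replicate 2 list 53.0% of the peaks at joined ends overlapped a replicate 1 peak, against 50.7% and 42.2%.

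The 12 joining peaks with the highest rank of fold in both lists lay at the ends of genes of varied function. The first lay in the 517 bp between CG2993 and sgll, which encodes the oxidase that makes the active form of vitamin B6, on 3R at 7810204 to 7811190. The CG2993 peak rested on pileups of 103 and 128 fragments over local backgrounds of 17.3 and 29.8, which gave folds of 5.69 (4.66 to 6.89) in replicate 1 and 4.19 (3.50 to 4.98) in replicate 2. Its summits were 14 bp apart and in the gap in this wide junction. The second lay at Cul4, the scaffold of a ubiquitin ligase, and udd, which acts in ribosomal RNA transcription, on 2R at 8106111 to 8106942. The Cul4 peak covered both ends across a gap of 66 bp, with folds of 4.59 (3.58 to 5.80) and 4.27 (3.54 to 5.10), the highest joining fold in replicate 2.

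The third lay between Ugt303B3 and Ugt303B1, neighbouring UDP-glycosyltransferase genes, on 3R at 23534526 to 23534777, with folds of 4.63 (3.62 to 5.83) and 3.64 (3.05 to 4.32). CG4098 and Prosbeta6, a catalytic-core subunit of the proteasome, shared a peak on 3L at 16608900 to 16609385 with folds of 4.32 (3.37 to 5.46) and 3.80 (3.13 to 4.58). Set1, the main H3K4 trimethylating enzyme of flies, and MED21 overlap by 257 bp, and their peak on 3L at 25115259 to 25115843 had folds of 5.13 (4.08 to 6.37) and 3.45 (2.80 to 4.20). In all of these the replicate intervals overlapped and replicate 1 had the higher fold. At Set1 the summits were 34 bp apart, but the replicate 2 summit fell out of reach of the second gene.

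The widest gap of any joining peak, 879 bp, was that between Dhc1 and Nepl12, with a summit 395 and 485 bp from the ends and folds of 4.82 (3.81 to 6.01) and 3.41 (2.85 to 4.05). CG10462 and Nf-YB, a subunit of the CCAAT-binding factor NF-Y, shared a peak over both ends on 2L at 19735711 to 19736728, with folds of 4.11 (3.16 to 5.28) and 3.87 (3.18 to 4.67). Acp54A1, named as an accessory gland protein, met CG11400 at folds of 4.10 and 3.36. Oseg4, a protein of transport within cilia, met PIG-Wb at 4.06 and 3.40, and the related genes CHKov1 and CHKov2 met at 4.17 and 3.33. At CHKov1 and CHKov2 the replicate 2 summit, 217 bp away, no longer reached both genes. CG14971 and CG32267 had 5.13 (4.05 to 6.41) and 3.43 (2.81 to 4.14). Only CG14891 and CG14903 among the 12 had intervals that did not overlap, with 5.79 (4.64 to 7.15) in replicate 1 and 3.39 (2.77 to 4.11) in replicate 2.

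**Figure D4:**
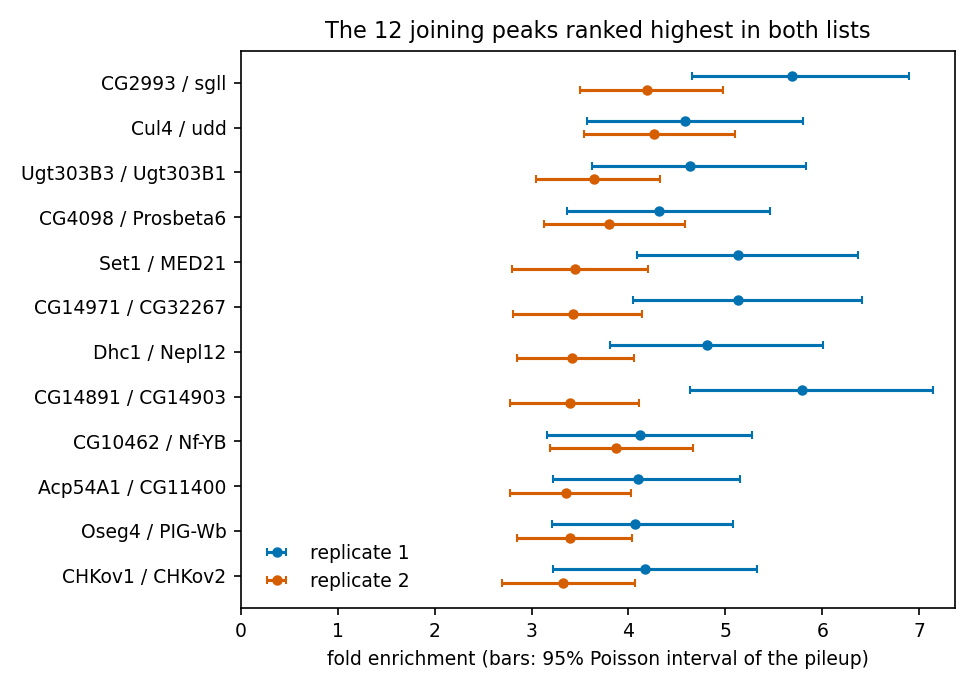
Fold enrichment (x axis) of the 12 joining peaks ranked highest in both lists (y axis, by gene pair), with 95% Poisson intervals as bars, replicate 1 above replicate 2. Replicate 1 is the higher in each pair, and the intervals overlap in each except CG14891 and CG14903.

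The peak of CG14891 also lay on the edge of the rule, with the farther gene's end exactly 500 bp from the summit. The other members nearest the edge were those of CG31548 with CG12170, at 1.87 and 2.19 in replicates 1 and 2, and of CG11771 with Osbp, an oxysterol-binding protein, at 2.13 and 2.36. Just outside, 1 bp beyond the limit, were the peaks of Chd1, a chromatin remodeller, with Bem46 (2.96 and 1.93), of Cyp6a22 with Cyp6a17 (2.50 and 2.13) and of CG5746 with CG6454 (3.91 and 3.09). Peaks with the farther end at 400 to 500 bp numbered 396 and had median folds of 2.66 and 2.29, and those beyond 500 and up to 600 bp numbered 373 and had 2.56 and 2.21.

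The joined genes were 2308 of the 11725 autosomal protein-coding genes, 19.7%, and the share was 22.0% with the replicate 1 list alone and 32.5% with the replicate 2 list alone. Their median length was 2135 bp, the same as that of the 7063 genes that had a close neighbour and were not joined. For 1697 of them (73.5%) no other shared summit lay in or near the gene, so the peak at the junction was the only shared summit there. No such share is given for other genes, so whether 73.5% is particular to joined genes was not tested. Pairs of genes with the same symbol stem, such as Cyp6a17 and Cyp6a23, were joined in 31 of 475 cases (6.53%), against 1295 of 7941 (16.3%) of the other close pairs. A non-coding gene also had an end within 500 bp of 64 joining summits (5.04%), against 8.13% at 1 gene end and 5.41% away from ends.

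Of the 15 gene lists, aminoacyl-tRNA synthetases and Mediator had the highest shares of joined genes. The lists were made from the form of the gene symbols, so a list need not hold its whole family. Of the aminoacyl-tRNA synthetases, which charge tRNAs with amino acids, 16 of 29 (55.2%) were joined, and 17 of 29 by the list of either replicate alone. Of the Mediator subunits 12 of 23 (52.2%) were joined, with 13 by replicate 1 alone and 15 by replicate 2 alone. Mitochondrial ribosomal proteins followed with 22 of 62 (35.5%), RNA polymerase subunits with 9 of 27 (33.3%) and the proteasome with 13 of 42 (31.0%). Cytoplasmic ribosomal proteins had 18 of 72 (25.0%) and the respiratory chain 16 of 68 (23.5%), both near the 19.7% of all genes. The vacuolar proton pump stood below it with 4 of 31 (12.9%). Only a gene with a close neighbour could be joined, which held for 100% of the synthetases and RNA polymerase subunits, 95.7% of Mediator and 79.9% of all genes. Among genes with a close neighbour the shares were 55.2% for synthetases, 54.5% for Mediator, 36.7% for mitochondrial ribosomal proteins, 34.2% for the proteasome, 33.3% for RNA polymerase, 31.4% for the respiratory chain, 28.6% for cytoplasmic ribosomal proteins and 14.8% for the proton pump, with 24.6% of all such genes as the background. These are counts in lists chosen with results of these data known, and no test was made of them.

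Receptor, odorant-binding and cuticle genes had the lowest shares of the 15 lists. Odorant receptors had 1 of 51 (1.96%), ionotropic receptors 1 of 49 (2.04%), cuticle proteins 3 of 87 (3.45%), odorant-binding proteins 3 of 45 (6.67%) and gustatory receptors 4 of 54 (7.41%). Serine proteases, listed only by symbols beginning with Jon or Try, had 2 of 17 (11.8%). Cytochromes P450, a family of detoxifying and hormone-making enzymes, had 11 of 70 (15.7%). With the replicate 2 list alone, P450 genes reached 26 of 70 (37.1%), against 32.5% of all genes, and so stood on the other side of the background. A close neighbour was present for 51.0% of the odorant receptors, 63.3% of the ionotropic receptors, 69.0% of the cuticle genes, 75.9% of the gustatory receptors and 77.8% of the odorant-binding proteins. Among genes with one, the joined shares were 3.85%, 3.23%, 5.00%, 9.76% and 8.57% in the same order, 13.3% for serine proteases and 20% for P450 genes, each below the 24.6%.

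**Figure D5:**
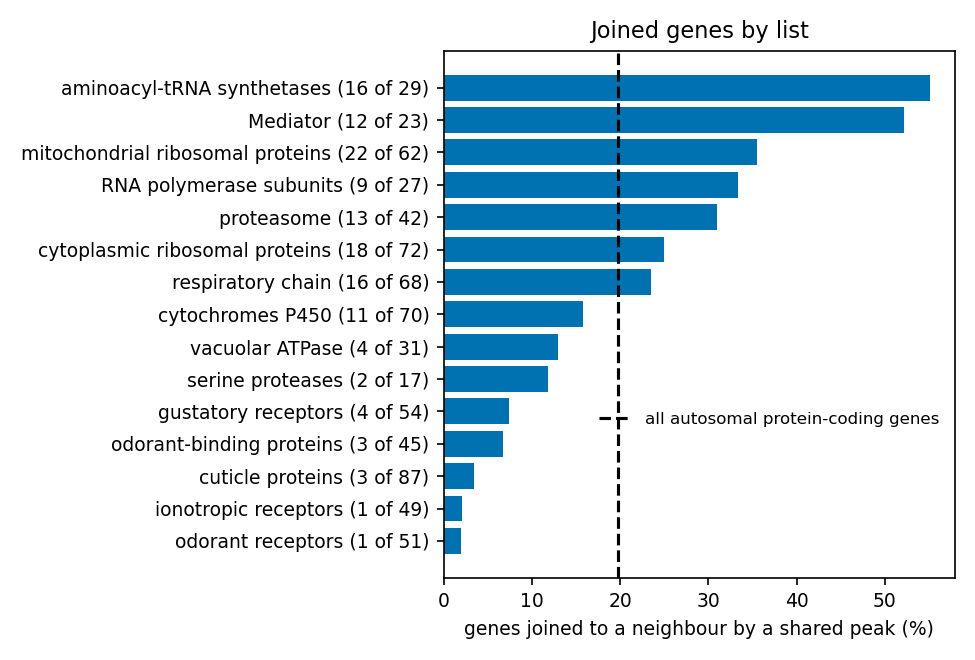
Percent of the genes of each list that a shared joining peak reached (x axis), for 15 lists (y axis, with counts), and the 19.7% of all autosomal protein-coding genes as a dashed line. Aminoacyl-tRNA synthetases (55.2%) and Mediator (52.2%) lie farthest above the line, and odorant receptors (1.96%) and ionotropic receptors (2.04%) farthest below.

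Among the tRNA synthetases the folds ran from 1.81 to 4.84 in replicate 1 (median 2.77) and from 1.85 to 3.03 in replicate 2 (median 2.27). Both leucyl enzymes were joined. LeuRS, of the cytoplasm, met CG17593 on 2L at 3514774 to 3515563, with folds of 4.84 (3.86 to 5.99) and 2.75 (2.24 to 3.34), whose intervals did not overlap. The replicate 2 summit of this peak, 203 bp away, no longer reached both genes. LeuRS-m, of mitochondria, met Dhc64C, the heavy chain of cytoplasmic dynein, on 3L at 4825333 to 4826258, in a peak over both ends with folds of 4.25 (3.27 to 5.43) and 2.66 (2.10 to 3.32). ArgRS-m met CG17816 at 3.63 (2.77 to 4.68) and 2.88 (2.33 to 3.52). Other partners included RIOK2 for GlnRS (2.96 and 2.62) and O-fut1, a fucosyltransferase of the Notch receptor, for CysRS-m (2.22 and 1.97). The replicate 1 summit lay inside a gene in 15 of these 16 peaks, near the 87.2% of all joining peaks. It lay in the gap only beside CysRS, where the folds were 2.32 and 3.03.

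The Mediator subunits had folds from 2.01 to 5.13 in replicate 1 (median 2.73) and from 1.98 to 3.45 in replicate 2 (median 2.27). The replicate 1 summit lay inside a gene in all 12, near the 87.2% of all joining peaks. Beside MED21 and MED7, described above, MED16 met Vps35, a retromer subunit, at 2.94 and 2.29, MED20 met Trf, a relative of the TATA-binding protein, at 2.27 and 2.24, and MED24 met Atg18a, an autophagy protein, at 2.30 and 2.19. MED23 met CG3700 across 9 bp, with 2.67 in replicate 1 and 2.83 in replicate 2.

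The highest joining fold in replicate 1 belonged to an RNA polymerase subunit. Polr1F, of RNA polymerase I, and Rat1, a nuclear exoribonuclease that acts in transcription termination, met across 238 bp on 2L at 6906805 to 6907906. The Polr1F peak had pileups of 101 and 106 fragments over local backgrounds of 15.9 and 32.1, with folds of 6.05 (4.94 to 7.34) in replicate 1 and 3.23 (2.65 to 3.90) in replicate 2. These intervals did not overlap, the summits were 185 bp apart and the replicate 2 summit no longer reached both genes. Polr2E met ND-B14, of respiratory complex I, and CG12942 at 3.47 (2.63 to 4.49) and 3.01 (2.47 to 3.64), with overlapping intervals.

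Of the mitochondrial ribosomal proteins, mRpL46 met PolD2, a subunit of DNA polymerase delta, and CG2021 on 3L at 1776877 to 1777829, with folds of 4.59 (3.73 to 5.60) and 3.33 (2.81 to 3.92) and summits 12 bp apart. The peak of mRpL48 and CG17660 had 3.82 (2.92 to 4.92) and 3.17 (2.62 to 3.81). That of mRpL44 and Snr1, a subunit of the Brahma remodelling complex, had 3.57 (2.84 to 4.44) and 2.85 (2.37 to 3.38) with summits 2 bp apart. All of these replicate 1 summits lay inside a gene, as did 87.2% of all joining summits.

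In the proteasome list, Rpt5, an ATPase of the regulatory cap, met RanBP3 at 3.00 (2.26 to 3.90) and 2.91 (2.42 to 3.48). Prosalpha2 met CG5245 under the widest joining peak of replicate 1, 1770 bp on 3R at 12429942 to 12431711, with folds of 3.93 (3.19 to 4.79) and 2.57 (2.14 to 3.07) whose intervals did not overlap. The replicate 2 summit at Prosalpha2, 216 bp away, no longer reached both genes. Of the cytoplasmic ribosomal proteins RpS4 had the highest lower rank over both lists, and it met Syx13, a syntaxin of endosomes, at 3.24 (2.45 to 4.21) and 2.96 (2.42 to 3.57). RpL13 met Dref, a transcription factor of growth and replication genes, at 4.21 in replicate 1 and 2.26 in replicate 2. In the respiratory list ND-MWFE and TppII, a large peptidase, overlap by 476 bp, and their replicate 1 summit lay inside both genes, with folds of 4.32 (3.33 to 5.50) and 2.82 (2.29 to 3.44).

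Some joined genes of the sensory lists are shown with their neighbours. Gr63a, a subunit of the carbon dioxide receptor, met Lamtor4 and Ccz1, proteins of lysosomes and endosomes, at 3.98 (3.04 to 5.12) and 2.56 (2.01 to 3.22). Ir25a, a co-receptor of olfactory and taste neurons, met Fnta, a subunit of protein farnesyltransferase, at 3.17 (2.34 to 4.21) and 2.63 (2.11 to 3.24). Or85f lay with CG34117 and RpL34b, a ribosomal protein, at 2.67 (2.04 to 3.43) and 1.95 (1.56 to 2.41), and Gr59f with AIMP3, of the tRNA synthetase complex, at 2.80 and 2.36. Which of the genes at such a junction the acetylation belongs to cannot be told apart from peak positions.

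The genes of the cuticle protein list were joined at Cpr57A, Cpr66Cb and Cpr78E, and in all 3 the replicate 1 summit lay in the gap. The replicate 2 summit lay in the gap at Cpr66Cb, but inside the cuticle gene at Cpr57A and Cpr78E, where it joined none of the same pairs. Cpr57A met Obp57d, BORCS7 and CG13430 on 2R at 20549471 to 20550766 under a peak of 1296 bp, with folds of 3.10 (2.39 to 3.95) and 3.10 (2.55 to 3.73), but the summits of the replicates were 610 bp apart. Cpr66Cb met Pex2, a protein of peroxisome assembly, at 2.55 (1.97 to 3.25) and 1.91 (1.51 to 2.39), and Cpr78E met CG43980 at 2.14 (1.53 to 2.92) and 1.94 (1.51 to 2.45).

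Joined family members were found among the P450 genes on 2R. Cyp6a17 and Cyp6a23, 89 bp apart, shared a peak at 14875751 to 14875961 with folds of 3.30 (2.45 to 4.36) in replicate 1 and 3.39 (2.76 to 4.12) in replicate 2, and their summits fell on the same base. Cyp6a21 and Cyp6a8 shared one at 14886729 to 14887054 with 3.73 (2.83 to 4.83) and 2.56 (2.01 to 3.22). Obp57c and Obp57b, odorant-binding protein genes 48 bp apart, shared a peak of 252 bp with 3.04 (2.22 to 4.05) and 1.99 (1.51 to 2.58). Fragments of such similar genes can be placed at either copy, and how the authors' alignment treated them is not given in the sources used here.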

How the data were processed

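H3K27ac was profiled by CUT&RUN in 2 replicates of 1 group. Per the submitters' processing notes, Bowtie2, MACS2 and the build dm6 were used, and peaks were listed per replicate. No source used here states versions, caller settings, duplicate removal or a control library. The deposited fold is the authors' ratio of pileup to local background. Each peak's deposited -log10 p and -log10 q came from the caller, and its deposited score, which restates the -log10 q, was not used. Listed peaks began at a -log10 q of 2.01 (replicate 1) and 2.04 (replicate 2).

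Whole-number pileups and backgrounds were solved from the deposited fold and -log10 p to within 0.001 units of log10 p, for 99.9931% of replicate 1 and 99.9962% of replicate 2 peaks. The solver and the rule were tested on simulated data. The simulated backgrounds all lay below the 27.1 fragments of replicate 2 and below many local backgrounds of replicate 1. Recovery at those backgrounds was therefore not simulated. Gene positions came from a RefSeq table of Release 6 (dm6), without strand, transcripts or sequence. The planned split by orientation of the genes and the motif search were therefore not run, and no sequence is shown. Positions are 1-based, and arms 2L, 2R, 3L, 3R and 4 were taken as autosomal.

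Genes were named by rule: the 12 members with the highest lower rank of fold over both replicates, the 6 with most genes, up to 3 per gene list, and 3 on each side of the 500 bp limit. Joined pairs with 2 peaks, and further partners of listed genes, were named after their values were seen, as were the widest gap and the highest fold. The members and lists were chosen with earlier results of these data known, and no test was made, since peaks and genes are not replicates. Alternatives covered the window, thresholds, overlap, summit and replicate. Python 3.11, numpy 2.4.6, scipy 1.17.1 and pandas 2.3.3 were used.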

Additional observations from a re-analysis of the deposited data

How the results depend on the processing

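Over 14 alternatives 105 values were recomputed. Of these, 67 moved little, 37 moved by more and 1 reversed; the limit was 1 SD between replicates, or 1.5 times for the number of joining peaks, or the exact 95% binomial interval for the share found again. For none was the cause tested. The ratios of densities, and their alternatives, were chosen after seeing the data.

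The number of joining peaks was 307 with a window of 250 bp, 2647 with 1000 bp, 529 with equal numbers of top peaks in both lists and 1932 with the peak interval in place of the summit. Leaving out a replicate gave 1480 to 2292 peaks. Their share of shared peaks was 2.84% with 250 bp, 24.5% with 1000 bp and 17.9% with the interval. Leaving out a replicate gave 9.20% to 11.3%, taken over all autosomal peaks of the remaining list and not over shared peaks. The share of close gene pairs joined was 3.86% and 33.7% with those windows, 6.83% with equal numbers and 24.5% with the interval. Leaving out a replicate gave 17.9% to 27.9%.

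The median width of joining peaks minus that at 1 gene end was, in replicate 1, 51 bp (250 bp window), 14 bp (1000 bp), -12.5 bp (-log10 q of at least 5), -4 bp (equal numbers), 39 bp (interval) and -5 bp (replicate 2 peaks and summits), and 1.5 bp without replicate 2. In replicate 2 it was 68, 25, -1, 3 and 33 bp under the first 5 of these. The ratio of densities at joined and single ends reversed to 0.732 with 250 bp and was 1.61 with 1000 bp. Leaving out a replicate gave 1.11 to 1.29. The ratio of densities in genes and gap was 1.84 with 250 bp and 1.23 with replicate 2 peaks and summits. Leaving out a replicate gave 1.37 to 2.36. The same genes were found again in 59.9% (250 bp), 95.7% (1000 bp), 82.0% (equal numbers), 84.8% (summits within 250 bp), 59.3% (interval) and 83.2% (replicate 2 peaks and summits).

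The median fold differences to single ends moved by less than the spread between replicates under each alternative, although the sign in replicate 1 turned to -0.02 with equal numbers of top peaks. No paired analysis was possible because there is 1 group. The alternatives for gene orientation could not be run without strands in the gene table. Regions under the callers' thresholds have no value, and replicate 1, with 13.8 fragments of background, limits how weak a shared peak can be.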
